A study of Rattus norvegicus with 4 samples.

Results

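The spots described here are those with the most RNA of neutrophils and of the red cell lineage in Visium data of rat trigeminal tissue from 4 capture areas, given the working name bone marrow and blood spots. A spot is a small disc of the slide that can hold several cells or parts of cells. Among 6623 spots with at least 2000 unique molecular identifiers (UMIs, each standing for 1 captured RNA molecule), spots were ranked by the summed CPM (UMIs of a gene per 1000000 UMIs) of S100a8, S100a9, Camp, Alas2, Slc4a1 and Ahsp, and the 400 highest were kept, out of 6773 spots in all. The values of these 6 genes therefore chose the spots and are given as a description, with no test.

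The animals were adult male Sprague-Dawley rats labelled wild type. TN1, TN2 and TN3 held the diseased side of the trigeminal neuralgia (TN) model, in which the trigeminal nerve root was compressed on 1 side, with 1 animal for each area. The healthy control (HC) area held tissue of 2 animals that the barcodes do not tell apart, so HC is 1 sample. The series description takes HC from the healthy side of 2 of the TN animals and the methods describe sham operation. Condition and capture area cannot be told apart for HC. The tissue was the trigeminal root, ganglion and proximal branches, cut at 10 μm, and what surrounds the nerve can lie on the same section.

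S100a8 and S100a9 encode the paired calcium-binding proteins that fill the cytoplasm of neutrophils, and Camp encodes the cathelicidin of their specific granules. Alas2 makes the first step of heme synthesis in red cell precursors, Slc4a1 is the anion exchanger of the red cell membrane, and Ahsp is a chaperone of free alpha globin. Neutrophils and red cells are both made in bone marrow and both circulate in blood, where reticulocytes still carry globin RNA. Granule protein genes are transcribed mainly in neutrophil precursors of the marrow, while stem and progenitor cells of the marrow carry genes such as Cd34, Kit and Flt3.

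To show what the promoters of genes of the 2 lineages look like, 250 bases before the annotated start are printed for S100a9 and Ngp on the myeloid side and Alas2 and Lgals5 on the red cell side. They come from RefSeq on the GRCr8 build, written 5′ to 3′ on the strand of the gene. Capitals mark AGATAA, the letters bound by GATA factors, and TTNNGNAA, a loose form of the letters bound by C/EBP factors, each on either strand. The S100a9 promoter lies at chr2:178490623-178490872 on the minus strand, the Ngp promoter at chr8:119272355-119272604 on the plus strand, the Alas2 promoter at chrX:22895200-22895449 on the plus strand and the Lgals5 promoter at chr10:64355138-64355387 on the minus strand.
S100a9: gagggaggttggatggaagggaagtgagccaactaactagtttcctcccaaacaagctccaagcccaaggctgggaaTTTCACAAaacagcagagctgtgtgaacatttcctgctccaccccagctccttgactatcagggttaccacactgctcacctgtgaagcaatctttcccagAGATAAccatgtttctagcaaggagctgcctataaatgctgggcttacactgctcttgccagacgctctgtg
Ngp: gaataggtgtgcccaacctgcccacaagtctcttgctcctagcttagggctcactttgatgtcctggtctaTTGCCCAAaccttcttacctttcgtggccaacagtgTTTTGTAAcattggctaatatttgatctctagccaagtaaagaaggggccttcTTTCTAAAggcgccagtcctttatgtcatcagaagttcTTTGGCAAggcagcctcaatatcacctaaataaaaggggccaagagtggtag
Alas2: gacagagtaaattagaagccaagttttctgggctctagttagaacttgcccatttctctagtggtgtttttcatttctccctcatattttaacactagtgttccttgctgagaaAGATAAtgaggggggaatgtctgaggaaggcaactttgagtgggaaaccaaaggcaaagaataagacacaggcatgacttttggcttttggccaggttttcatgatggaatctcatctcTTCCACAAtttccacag
Lgals5: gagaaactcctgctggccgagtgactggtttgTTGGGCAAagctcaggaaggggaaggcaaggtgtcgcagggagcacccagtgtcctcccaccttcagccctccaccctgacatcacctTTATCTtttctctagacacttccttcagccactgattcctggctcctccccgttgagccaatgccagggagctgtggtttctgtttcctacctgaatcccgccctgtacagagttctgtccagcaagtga
Ngp held TTNNGNAA at 4 places and AGATAA at 0, whereas the other 3 promoters held each motif at 1 place. Of 33469 promoters in the table, 10.3% held AGATAA and 37.2% held TTNNGNAA in this window. AGATAA stood in 9 of 28 promoters of the red cell and hemoglobin genes listed for this study and in 5 of 18 of the neutrophil granule and myeloid rule genes. TTNNGNAA stood in 8 of the 28 and in 11 of the 18. A match describes letters and not a bound site.

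HC held most of the chosen spots. Of the 400, 313 lay in HC, 58 in TN3, 24 in TN1 and 5 in TN2. As a share of the spots with 2000 UMIs or more, this was 15.6% in HC (exact 95% binomial interval 14.1 to 17.3, counting error only), 3.22% in TN3 (2.45 to 4.14), 1.52% in TN1 (0.977 to 2.25) and 0.403% in TN2 (0.131 to 0.938). The intervals cover counting error over spots and are no test between areas, since the rule genes chose the spots. HC is 1 area and gives no spread between animals. TN2, with 5 chosen spots, entered no test.

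**Figure D1:**
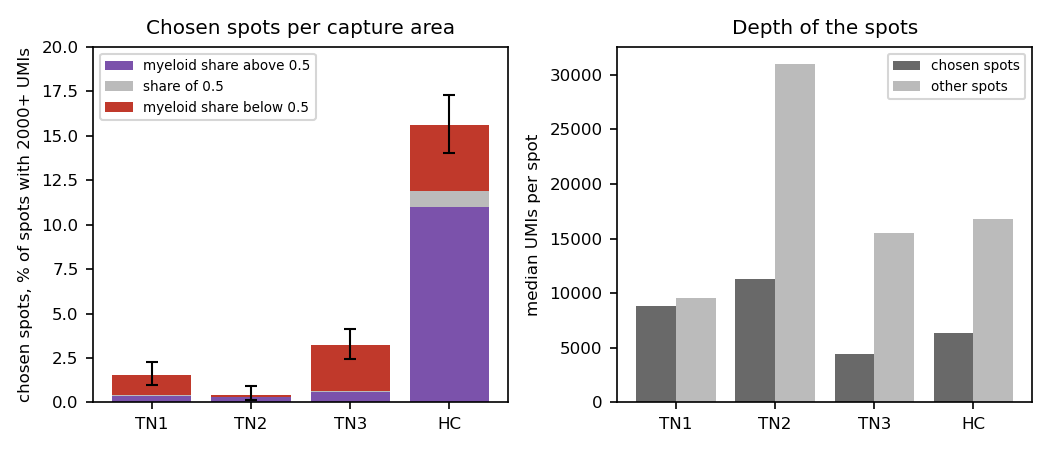
Left, chosen spots as a percentage of the spots with 2000 or more UMIs in each capture area, split by which lineage's rule genes gave more UMIs, with exact 95% binomial intervals for the total. Right, median UMIs per spot in chosen and other spots. HC stands highest at 15.6%, and its bar is mostly myeloid, while those of TN1 and TN3 are mostly erythroid.

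The chosen spots were shallow. TN1, TN2, TN3 and HC had medians of 8870, 11322, 4470.5 and 6338 UMIs in the chosen spots and of 9514.5, 30980, 15546 and 16821 in the others. Their totals were 237823, 84179, 371687 and 2426787 UMIs in the same order. The mitochondrial share of UMIs was 14.4%, 8.11%, 10.5% and 10.3%, against 11.5%, 7.81%, 7.46% and 5.62% in the other spots. The part of depth in the choice was not tested, apart from the alternatives given with the results.

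Many chosen spots rested on few molecules. The rule genes gave between 2 and 1100 UMIs in a chosen spot, with a median of 9. In 33 spots there were 2 or 3 such UMIs, in 95 there were 5 or fewer, and in 76 there were 20 or more. The last spot kept, in TN3, had 2 of 2730 UMIs (733 CPM), and the first one left out, in HC, had 6 of 8211 (731 CPM).

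The myeloid rule genes were far more uneven in amount than the erythroid ones, although UMIs of each were present in 358 of the 400 spots. Outside the rule, Hbb was found in 389 of the 400. The 3 myeloid rule genes gave 5614 UMIs over the 400 spots, of which the richest spot held 19.4% and the richest 10 held 44.3%. The 3 erythroid rule genes gave 1781 UMIs, of which the richest spot held 2.19% and the richest 10 held 12.7%. The highest-ranked spot, in HC, had 415 UMIs of S100a8, 490 of S100a9 and 182 of Camp among 14555, together with 4 of Alas2, 6 of Slc4a1 and 3 of Ahsp. All 10 highest-ranked spots had a myeloid share of rule UMIs of at least 0.952, and 8 of them were in HC. The highest-ranked spot with more erythroid than myeloid UMIs came at rank 22, at 4898 CPM.

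Genes that the rule did not use varied in the same respect. Among neutrophil granule genes, the richest 10 spots held 74.0% of the UMIs of Np4, 69.8% of Defa5 and 57.4% of RatNP-3b, which encode defensins, and 55.6% of Mmp8, the neutrophil collagenase. For Hba-a3 and Hbb, which encode globin chains, the richest 10 spots held 12.5% and 16.6%, and for the red cell galectin gene Lgals5 they held 20%. Ngp, a cathelicidin-like granule protein gene, stood at 39.6%, and the red cell gene Rhd was near it at 34.4% of 61 UMIs. Among the rule genes of the red cell side, Ahsp was at 30.9% and Alas2 at 11.6%, so that the lineages did not separate gene by gene. Other genes lay in few spots too, with the pituitary hormone genes Gh1 at 47.3% and Prl at 46.0%.

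**Figure D2:**
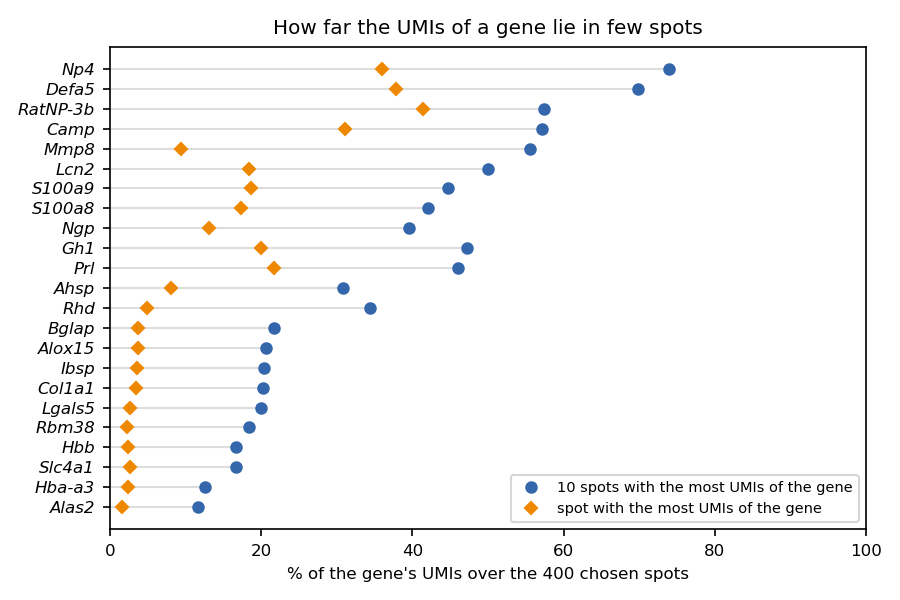
Percentage of the UMIs of each gene over the 400 chosen spots that lay in the spot richest in that gene (diamonds) and in its 10 richest spots (circles). Several granule genes stand highest, with 74.0% of Np4 in 10 spots, and Alas2 lowest with 11.6%. Gh1 (47.3%) and Prl (46.0%) stand above the granule gene Ngp (39.6%).

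A few spots held much of the signal in the TN areas. A spot of TN3, ranked 4 of all, held 66.1% of the 313 myeloid rule UMIs of the chosen spots there, and 1 spot of TN1 held 34.1% of 232. In HC the richest spot held 22% of 4945. The erythroid UMIs of TN1, TN3 and HC had 13.7%, 11.6% and 1.82% in their richest spot, out of 175, 336 and 1262 UMIs. With 24, 58 and 313 chosen spots, such shares are higher where there are fewer spots, and the areas are not compared on them.

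The levels of the rule genes in the chosen spots show the same split. S100a9 stood at 521 CPM in TN1, 457 in TN3 and 935 in HC, and S100a8 at 357, 323 and 882. Camp stood at 96.7, 61.9 and 220 CPM in the same order. Alas2 stood at 387 CPM in TN1, 439 in TN3 and 254 in HC, and Ahsp at 185, 301 and 109. Slc4a1 was at 164 CPM in TN1 and TN3 and 157 in HC. In such sums, fewer cells of a type and less RNA per cell cannot be told apart. The myeloid genes were higher in HC than in TN1 and TN3, Alas2 and Ahsp were lower, and Slc4a1 was level. The 5 spots of TN2 went otherwise for the erythroid genes, with Alas2 at 83.2 CPM, Ahsp at 11.9 and Slc4a1 at 0, and had S100a8 at 653, S100a9 at 784 and Camp at 35.6. In the other spots of HC the myeloid rule genes summed to 79.4 CPM and the erythroid ones to 55.0, against 11.2 and 32.3 in TN1, 14.5 and 13.7 in TN2 and 21.0 and 43.9 in TN3.

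Each chosen spot was called myeloid-dominant or erythroid-dominant by whether S100a8, S100a9 and Camp gave more or less than 0.5 of its rule UMIs. HC had 220 myeloid-dominant and 75 erythroid-dominant spots and 18 with equal shares. TN1 had 6 and 17 with 1 equal, TN3 had 11 and 46 with 1 equal, and TN2 had 4 and 1. The median myeloid share of a spot was 0.697 in HC, 0.211 in TN1, 0.146 in TN3 and 0.900 in TN2. These medians depend on which spots are kept, and that of TN1 was 0.552 with 200 spots and 0 with 800 or after thinning, while that of TN3 was 0.333, 0.125 and 0 and that of HC between 0.625 and 0.791 over the alternatives run. Summed over spots, myeloid UMIs were 57.0% of the rule UMIs in TN1, 48.2% in TN3, 79.7% in HC and 93.9% in TN2. Shares between 0.4 and 0.6 were seen in 69 spots of HC, 5 of TN3 and 3 of TN1, so that the classes are ranges and not types of spot.

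Most chosen spots held both lineages. At least 1 UMI of each lineage's rule genes was found in 85.6% of the chosen spots of HC, 62.5% of TN1, 53.4% of TN3 and 40% of TN2, against 44.4%, 5.92%, 14.3% and 8.99% of the other spots. After each spot was thinned to 2000 UMIs, the shares were 42.8%, 4.17%, 27.6% and 20% in the chosen spots and 2.54%, 0.193%, 0.459% and 0.0810% in the others. Spots with UMIs of 1 lineage only were 36 myeloid and 9 erythroid in HC, 2 and 7 in TN1, and 2 and 25 in TN3.

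The other genes of the chosen spots were then set against the other spots of the same area. UMIs were summed over the chosen and over the other spots in TN1, TN3 and HC, and the sums were fitted with edgeR's quasi-likelihood model with the capture area as a block. Of 12210 genes fitted, 469 (3.84%) were higher and 560 (4.59%) lower in the chosen spots at an adjusted p below 0.05. The spots were chosen on these same libraries, so genes that accompany the 6 rule genes had to differ, and nothing is read from these counts. The counts by gene list below come from the same choice and only describe what the spots hold. They are to be set beside these shares over all genes. By area, 536 genes (4.39%) had all 3 sums of chosen spots above all 3 sums of other spots, and 906 (7.42%) had all 3 below, which is read no further. Sizes are given below as log2 ratios with standard errors, as a description of what the chosen spots hold. The other spots were then limited to totals between the 10th and 90th percentile of the chosen spots. There 113 genes (1.07%) were higher and 132 (1.25%) lower, of 10540, and 104 and 5 of them were also called with all other spots. The calls of higher genes were thus largely a subset of the first, and those of lower genes were not. Even then the other spots were deeper in TN3 and HC, with medians of 8407.5 and 9062 UMIs.

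Neutrophil granule genes were higher in the chosen spots. Of 16 fitted granule genes, 15 were called higher and 0 lower, where 3.84% of all genes fitted were called higher. Their median log2 ratio was 3.21, against -0.06 over all genes fitted. Ngp stood at 88.3 CPM in TN1, 37.7 in TN3 and 113 in HC, against 0.859, 1.39 and 5.86 in the other spots, a log2 ratio of 4.97 ± 0.27. The chosen spots were above the others in all 3 areas. RatNP-3b stood at 46.3, 8.07 and 166 CPM, against 2.66, 0.913 and 8.40 (4.34 ± 0.26). Np4 and Defa5 had 6 and 4 UMIs in the chosen spots of TN1, 0 in TN3, and 185 and 165 in HC, so that their ratios of 3.62 ± 0.36 and 3.35 ± 0.39 came from HC and TN1. Lyz2, the lysozyme gene that macrophages share, was the most abundant gene of the list and differed least, at 332 CPM against 252 in TN1, 839 against 962 in TN3 and 219 against 79.0 in HC.

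Several other granule genes were sparse. Mpo, myeloperoxidase, had 15 UMIs over the chosen spots of all areas (3.18 ± 0.71), Ctsg had 11, Elane and Prtn3 had 6 each, and Ltf, lactoferrin, had 1. Genes on the list of neutrophil receptors and signalling were sparse as well, with Cxcr4 the most abundant at 93 UMIs and Csf3r at 12. Mcemp1, a membrane protein of myeloid cells, had 27 UMIs and a ratio of 4.97 ± 0.64.

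Hemoglobin took a large share of the RNA of the chosen spots in TN1, TN3 and HC. The 6 rows of the matrix that belong to adult globins took 11.1% of the UMIs of the chosen spots in TN1, 12.8% in TN3, 10.8% in HC and 1.94% in TN2, against 0.884%, 1.71%, 1.45% and 0.539% in the other spots. They are 2 rows of Hba-a2, 1 each of Hba-a3 and Hbb, and LOC689064 and LOC100134871, whose gene numbers are those of Hbb-bs and Hbbl1 in RefSeq. These copies are nearly alike, and how UMIs were split among them is uncertain. Hba-a3 stood at 1148 CPM in TN1, 1127 in TN3 and 836 in HC, against 92.1, 140 and 100 in the other spots (3.38 ± 0.13), so that the 3 areas lay close together. Hbb was at 4503 CPM in TN1 but 1060 in TN3 and 1330 in HC, against 441, 199 and 240 (2.90 ± 0.13). Embryonic and fetal globins gave almost nothing, with 1 UMI each of Hbe1 and Hbg1 and 0 of Hbz.

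Many genes of red cell formation were higher as well. Of 25 fitted, 15 were called higher and 0 lower, against 3.84% of all genes higher, and their median was 1.01. Lgals5 stood at 147 CPM in TN1, 94.2 in TN3 and 65.9 in HC, against 8.11, 9.66 and 8.58 (3.52 ± 0.22). Rhd, of the Rh blood group complex, had 61 UMIs in the chosen spots and a ratio of 3.16 ± 0.46. Bnip3l, which acts in the removal of mitochondria from reticulocytes, was the most abundant gene of the list at 265, 248 and 354 CPM, against 184, 184 and 214 (0.73 ± 0.14). Fech, which inserts iron into heme, was at 67.3, 108 and 110 CPM, against 43.7, 44.4 and 68.3 (1.01 ± 0.17). The erythroid factor Klf1 had 30 UMIs and Gata1 had 7. With other spots of like depth, 7 of 21 red cell genes were called, and all 4 hemoglobin rows. In that fit 1.07% of all genes were higher and 1.25% lower.

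Genes of stem and progenitor cells did not set the chosen spots apart in the fit above, and several defining ones were at or near 0. With no filter on low counts 2 of 13 were called higher, against 2.57% of all genes. Of 6 fitted stem and progenitor genes, 0 were called in either direction, and the 13 genes of the list summed to 58.9 CPM in TN1, 45.7 in TN3 and 53.2 in HC, against 50.4, 57.9 and 46.6 in the other spots. Cd34 had 6 UMIs, Flt3 had 1 and Myb had 0, while Kit, which other cells also carry, had 46 and stood at 16.8, 8.07 and 15.2 CPM against 19.6, 21.3 and 21.2. The platelet gene Ppbp had 0 UMIs, and of 4 fitted megakaryocyte genes only Pf4, a platelet chemokine gene also found in macrophages, was called, with 21 UMIs in TN1, 15 in TN3 and 12 in HC. Without TN1, at like depth, with 200 or 800 spots or with DESeq2, 0 genes of that list were called. Among 13 fitted cell division genes 2 were called higher, and these were Mki67 (66 UMIs, 1.92 ± 0.34) and Hmgb2 (136 UMIs, 1.49 ± 0.23). Of the B cell list Cd79b was called, on 26 UMIs (3.03 ± 0.58), and of 6 T and NK cell genes 0 were. Of 6 marrow stroma genes 0 were called, but 1 of 8 was higher with no filter on low counts and 1 of 6 without TN3. The label of bone marrow and blood therefore rests on neutrophil granule and red cell genes, and these values do not tell the marrow from blood.

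Genes of other leukocytes were uneven. Alox15, a lipoxygenase of reticulocytes and eosinophils, stood at 101 CPM in TN1, 118 in TN3 and 196 in HC, against 10.5, 13.3 and 27.4 in the other spots (3.17 ± 0.18). Prg2, the eosinophil major basic protein, had 62 UMIs in the chosen spots of HC and 0 in TN1 and TN3. Of 12 monocyte and macrophage genes only Csf1r, the receptor of colony stimulating factor 1, was called higher (0.58 on the log2 scale), and with other spots of like depth it was at -0.19. Of 3 fitted cytokine genes 0 were called, Il1b had 4 UMIs and Tnf had 0.

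The 10 largest rises by the naming rule were mostly genes of neutrophils and red cells, many on few UMIs. Retnlg, a resistin-like gene of neutrophils, had 5, 3 and 46 UMIs in the chosen spots of TN1, TN3 and HC and 8, 8 and 27 in the far more numerous other spots (5.18 ± 0.54). Ngp, Mcemp1, Olfm4 and RatNP-3b followed among myeloid genes, with 1, 4 and 18 UMIs of Olfm4. Il1rn, the interleukin 1 receptor antagonist, had 1, 11 and 2 UMIs (4.15 ± 0.73), and Padi4, the arginine deiminase of neutrophils, had 1, 3 and 6 (3.99 ± 0.88). Hbq1a, Trim10 and Hemgn belong to the red cell side, with 1, 2 and 3 UMIs of Hbq1a, 1, 1 and 7 of Trim10 and 6, 1 and 15 of Hemgn.

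Several bone genes were higher too, mainly in HC. Of 10 fitted genes of osteoblasts and bone matrix 6 were called higher and 0 lower, against 3.84% of all genes higher. Without HC it was 2 of 10, against 0.689%. With other spots of like depth it was 4 of 8, against 1.07%, and the median was 0.65 in place of 1.18. Ibsp, bone sialoprotein, was at 4.20 CPM in TN1, 8.07 in TN3 and 88.6 in HC, against 3.09, 4.82 and 9.41 in the other spots (2.83 ± 0.30), so that only HC held it in number. Bglap, osteocalcin, was at 122, 61.9 and 389 CPM against 47.4, 35.1 and 132 (1.51 ± 0.16), and was above the other spots in all 3 areas. Col1a1, the main collagen of bone, was at 1375, 1945 and 2654 CPM against 425, 1715 and 686 (1.44 ± 0.13). The list of 15 genes summed to 4672 CPM in TN1, 5548 in TN3 and 5542 in HC, against 3274, 5839 and 3066, so that the sum was lower in the chosen spots of TN3. Their part in the choice of spots was not tested. Of 5 fitted osteoclast genes 1 was called higher, the carbonic anhydrase gene Car2 (0.98 ± 0.14), which other cells also carry and which stood at 189, 229 and 207 CPM against 230, 66.6 and 116. Acp5 and Ctsk were not called.

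Pituitary hormone genes were also higher. Of 6 fitted, 5 were called higher and 0 lower, against 3.84% of all genes higher. Without HC it was 1 of 3, against 0.689%. Gh1, growth hormone, was at 50.5 CPM in TN1, 1434 in TN3 and 548 in HC, against 15.0, 83.7 and 91.4 (3.26 ± 0.15). In TN3 1 spot held 459 of its 533 UMIs, the same spot, ranked 4 of all, that held 66.1% of the myeloid rule UMIs there, and in HC the richest spot held 3.76% of 1330. Prl, prolactin, had 0 UMIs in the chosen spots of TN1, 11 in TN3 and 264 in HC (3.04 ± 0.27). The 8 genes of the list summed to 67.3 CPM in TN1, 1499 in TN3 and 750 in HC, against 30.9, 106 and 127, and their part in the result was not tested. With other spots of like depth 3 of 5 were called, where 1.07% of all genes were higher and 1.25% lower.

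Sensory neuron genes were lower and central myelin genes higher in the chosen spots, and both directions were lost at like depth. Of 12 sensory neuron genes 9 were called lower and 0 higher, against 4.59% of all genes lower. Nefh, the heavy neurofilament, was at 1316 CPM in TN1, 667 in TN3 and 2734 in HC, against 2470, 1421 and 4570 (-0.75 ± 0.12). Calca, which encodes CGRP, was at 252, 245 and 597 CPM against 620, 583 and 1041 (-0.92 ± 0.13). With other spots of like depth 0 of the 12 were called and their median was 0.30. Of 8 central myelin genes 5 were called higher with all other spots, against 3.84% of all genes. Mobp was among them, at 164, 361 and 446 CPM against 197, 71.1 and 198. At like depth 0 were higher and 5 lower, where 1.25% of all genes were lower. Astrocyte genes went from 2 of 7 higher to 5 of 7 lower. For peripheral myelin 0 of 8 genes were called, and at like depth 1 was lower. These counts also turned on single areas. Without TN1, 5 of 8 peripheral myelin genes were lower and 5 of 7 astrocyte genes higher, where 2.97% of all genes were lower and 3.5% higher. Without TN3 central myelin went to 2 of 8 higher and astrocytes to 0 of 7, where 2.68% of all genes were higher.

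The 10 largest falls by the naming rule were Nxph3, Gng4, Gabra5, Chrna3, Rhov, Rxrg, Mctp2, Nsun4, Ptprn2 and Dync1i1. They ran from -1.60 ± 0.54 for Nxph3, a neurexin ligand with 0, 1 and 10 UMIs in the chosen spots of TN1, TN3 and HC, to -1.04 ± 0.17 for the dynein subunit gene Dync1i1 with 14, 12 and 315. Chrna3, a nicotinic receptor subunit, had 1, 0 and 57 (-1.36 ± 0.27). At like depth Rxrg alone of these was still called, at -1.04, and Dync1i1 stood at 0.06.

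Leaving out libraries or spots changed the size of these counts. Without HC, 84 of 12191 genes (0.689%) were called higher and 112 (0.919%) lower, and 2 of 13 granule genes, 4 of 4 hemoglobin rows and 5 of 23 red cell genes were among the higher ones. Without TN3 the counts were 334 (2.68%) and 153 (1.23%) of 12440. Without the 10 highest-ranked spots, 456 of 12192 genes (3.74%) were higher, and 14 of 15 granule genes, 4 of 4 hemoglobin rows and 15 of 25 red cell genes were among them.

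Inside the chosen spots, the classes differed in granule genes and less in globin. These classes were cut from the rule genes, and only HC had 20 spots of each class, so its values are a description of 1 sample. Of 7811 genes with at least 20 UMIs in the HC sums, 8 (0.102%) were at least 4-fold higher in the 220 myeloid-dominant spots, on the CPM plus 5 scale, and 0 (0.00%) were 4-fold higher in the 75 erythroid-dominant spots. The 8 were Mmp8, Np4, Cd177, Ngp, Lcn2, Retnlg, Defa5 and Pglyrp1, all expressed by neutrophils. Mmp8 had 96 UMIs in the myeloid-dominant and 1 in the erythroid-dominant spots, and Np4 had 173 and 9. Ngp stood at 156 CPM (exact 95% Poisson interval 137 to 176, counting error only) against 27.1 (16.1 to 42.9). Without the 10 highest-ranked spots 2 genes passed 4-fold.

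Globin RNA was abundant in both classes and higher in the erythroid-dominant spots. In HC the 6 hemoglobin rows stood at 90993 CPM in the myeloid-dominant spots and 151046 in the erythroid-dominant spots. In TN3 they stood at 62113 and 147471 CPM, and in TN1 at 32209 and 156680. Other red cell genes were mixed. In HC, Hbb stood at 1121 CPM in the myeloid-dominant and 1875 in the erythroid-dominant spots, Lgals5 at 59.5 and 86.0 and Bnip3l at 339 and 400, while Fech (110 and 118), Tmcc2 (114 and 116) and Alox15 (194 and 216) lay within each other's counting intervals. In TN1, with 6 and 17 spots, the intervals of Alox15 (0 and 162 CPM) and Tmcc2 (118 and 444) did not overlap, and those of Fech (23.6 and 94.2, from 2 and 14 UMIs) did. These intervals leave out the spread between spots, and 1 spot held 9 of the 24 Alox15 UMIs in TN1. In TN1 and TN3, with 6 and 11 myeloid-dominant spots, granule genes had few UMIs and went both ways. Ngp had 21 and 14 in the myeloid-dominant spots and 0 in the erythroid-dominant ones. Retnlg (5 and 3), Mmp8 (3 and 1) and Pglyrp1 (3 and 1) likewise had 0 in the erythroid-dominant spots. Lcn2 had 5 and 6 in the myeloid-dominant spots, against 0 in TN1 and 3 in TN3. RatNP-3b was level in TN1 (47.2 and 47.1 CPM, from 4 and 7 UMIs) and had 0 and 3 UMIs in the classes of TN3. Np4 and Defa5 had 0 in the myeloid-dominant and 6 and 4 in the erythroid-dominant spots of TN1.

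Of the bone list, 7 genes had enough UMIs in HC, and all 7 had a log2 ratio above 0 in the myeloid-dominant spots. So did 5494 of all 7811 genes and all 12 sensory neuron genes, whose median was also 0.48. The sign is therefore not particular to bone. The bone ratios ran from 0.06 for Spp1 to 1.04 for Col1a1 with a median of 0.48, against 0.18 over all genes. Bglap stood at 449 CPM against 288, Ibsp at 103 against 52.8 and Col1a1 at 3180 against 1546. Col1a1 was higher in the myeloid-dominant spots of TN1 (2440 against 787 CPM) and TN3 (3956 against 1382) too, and Bglap in those of TN1 (236 against 60.6). In TN3 Bglap (36.7 against 69.5 CPM, 3 and 20 UMIs) and Ibsp (0 against 3 UMIs) were not higher in the myeloid-dominant spots. The lowest ratio of all 7811 genes was that of Prl, at 67.4 CPM in the myeloid-dominant spots and 213 in the erythroid-dominant spots (-1.59 on the log2 scale), and Gh1 was at 513 and 650. In TN3 both went the other way, with Gh1 at 5732 and 226 CPM, of which the spot ranked 4 gave 459 of 468 UMIs in the myeloid-dominant class, and Prl at 61.2 and 20.8 from 5 and 6 UMIs. In HC the intervals of Bglap, Ibsp, Col1a1, Prl and Gh1 did not overlap between the classes, with counting error only. They leave out the spread between spots, and 1 spot held 68 of the 264 Prl UMIs in HC.

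**Figure D3:**
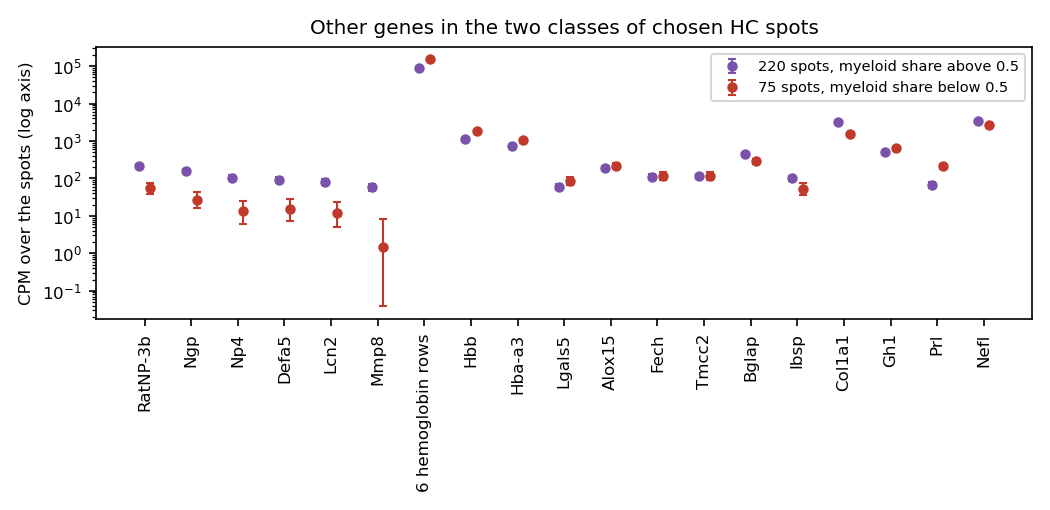
CPM of genes outside the rule in the 220 myeloid-dominant and 75 erythroid-dominant chosen spots of HC, on a log axis, with exact 95% Poisson intervals. Granule genes separate, with Ngp at 156 against 27.1, while Alox15, Fech and Tmcc2 lie together and Hbb is higher in the erythroid-dominant spots.

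Along the ranking, which the rule genes set, other genes changed at different ranks. In HC the hemoglobin rows stood at 134868 CPM in the 8 spots ranked 1 to 10, at 91937 in the 145 spots ranked 201 to 400, at 56874 in the 257 spots that followed up to rank 800 and at 7037 in the 400 spots of the lowest ranks. Ngp went from 1113 to 27.4, 14.7 and 3.39 CPM over the same groups. The 10 highest-ranked spots were all myeloid-dominant by the rule genes, so nothing is read from the fall of Ngp below them. Bglap was at 143 CPM in the 8 highest spots, 502 in the 79 spots ranked 11 to 100, 298 at ranks 201 to 400 and 104 at the lowest ranks. Nefh lay between 1741 and 5033 CPM over the whole ranking, lowest in the 8 highest spots. The ranking used these libraries, and the groups of spots are not replicates.

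**Figure D4:**
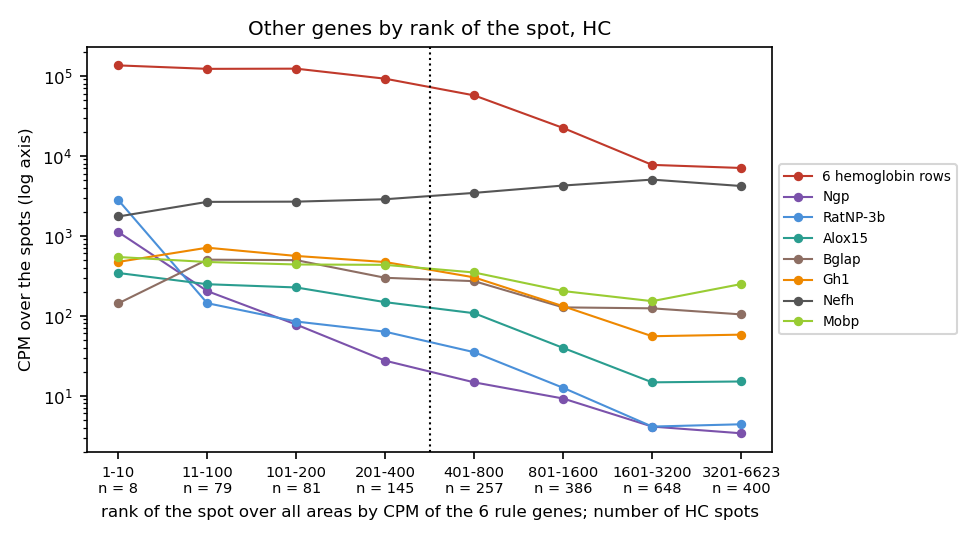
CPM in HC spots of genes outside the rule by rank of the spot, on a log axis, with the number of HC spots under each group of ranks and a dotted line at rank 400. The 6 hemoglobin rows go from 134868 to 91937 over the first 4 groups and then fall to 7037, while Ngp falls from 1113 within the chosen spots.

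The chosen spots of TN1 and TN3 were then compared with those of HC. HC is 1 area, so that the comparison is between areas and not a test of the model. Its spread was taken from the TN areas, with 1 residual degree of freedom. Of 5537 genes tested, 45 (0.813%) were higher and 28 (0.506%) lower in TN (edgeR quasi-likelihood, adjusted p below 0.05). DESeq2 called 0 genes, with 135 at an unadjusted p below 0.05, where edgeR had 522. A gene could pass the filter on low counts through 1 area, so that genes with few UMIs elsewhere entered through the side where they are high, and their values are given as a description.

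Among 10 tested granule genes RatNP-3b was called lower in TN1 and TN3, where 0.506% of all genes tested were. Np4 and Defa5 were called too and are given as a description. The calls of all 3 rested on the richest spots. RatNP-3b stood at 46.3 CPM in TN1 and 8.07 in TN3 against 166 in HC (log2 -2.70 ± 0.53). Np4 and Defa5, with 6 and 4 UMIs in TN1 and 0 in TN3 against 185 and 165 in HC, entered through HC. In HC 1 spot held 173 of the 404 UMIs of RatNP-3b, and the richest spot held 69 of 185 of Np4 and 64 of 165 of Defa5. Without the 10 highest-ranked spots 0 of the 3 were called, with RatNP-3b at -1.69, and Np4 and Defa5 were not called with 5000 UMIs or more or with 800 spots either. The other 7 tested granule genes did not pass. Of the 4 hemoglobin rows and the red cell list 0 were called, and the rows of Hba-a2 were at -0.03 with standard errors of 0.76 and 0.81.

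Some genes of bone and of other tissue differed as well. Of 7 bone genes tested 2, Bglap and Ibsp, were called lower and 0 higher, and 2 had ratios above 0. Over all genes tested, 0.506% were called lower. Bglap fell by 2.04 on the log2 scale (122 CPM in TN1, 61.9 in TN3 and 389 in HC). Ibsp, with 1, 3 and 215 UMIs, entered through HC. Tph1, a tryptophan hydroxylase of the pineal gland and other serotonin-making cells, had 0 UMIs in the chosen spots of TN1 and TN3 and 161 in HC, which makes it at least 13.5-fold lower in TN, against a floor of 3 counts over both TN areas. RT1-T24-4, a class I histocompatibility gene, had 1, 1 and 127 UMIs. Prl was lower too, at -2.59 ± 0.55.

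The genes that were higher in TN included Gpnmb, Mlip, Thbs4, Atf3 and Pf4. Gpnmb, a glycoprotein of lipid-laden macrophages, stood at 21.0 CPM in TN1, 231 in TN3 and 7.42 in HC, from 5, 86 and 18 UMIs. Atf3, a transcription factor induced by nerve injury, stood at 33.6, 96.9 and 5.36 CPM, from 8, 36 and 13 UMIs. Mlip was at 177, 24.2 and 6.18, Thbs4, a thrombospondin, at 29.4, 83.4 and 4.12, and Pf4 at 88.3, 40.4 and 4.94. With no filter on low counts, the log2 ratios of these 5 genes ran from 3.49 for Pf4 to 4.04 for Gpnmb. Np4, Defa5 and Ibsp, which entered through HC, were then at -2.99, -3.42 and -3.85, and all these ratios are given as a description only. Both TN areas lay above HC in each of the 5, and TN1 and TN3 also lay apart from each other. The 5 genes were low in HC and could pass the filter through TN, where they are high, so their values are a description too. Over all genes tested, 0.813% were called higher. Of 7 macrophage genes 2 were called higher, Cd68 and C1qc, of 8 peripheral myelin genes 2, Egr2 and Pmp2, and of 6 connective tissue genes 2, Mgp and Fn1. C1qc held its call in 2 and Pmp2 in 4 of 9 alternatives, and 0 of these 6 genes were called by DESeq2.

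Most of these differences had the same sign in the other spots. There, TN1 and TN3 both lay above HC for 43 of the 45 genes called higher and below HC for 27 of the 28 called lower, against 30.9% and 41.9% of all genes tested. Gpnmb was at 15.8 CPM in TN1, 273 in TN3 and 8.33 in HC in the other spots, and Atf3 at 83.2, 178 and 5.11. The sizes differed, as for Ibsp, whose other spots were at 3.09, 4.82 and 9.41 CPM, and Defa5, at 3.39, 1.48 and 4.88 with TN2 at 5.53. The difference between chosen and other spots was fitted for a difference between TN and HC as an interaction. HC is 1 area here too, so this compares areas and is not a test of the model. Of 13807 genes 0 (0.00%) were higher and 2 (0.0145%) lower in TN, Lyz2 and NEWGENE_621351, with 321 at an unadjusted p below 0.05 by edgeR and 0 called by DESeq2. Ibsp was not called (-2.67 ± 0.79). Lyz2 stood at 219 CPM in the chosen and 79.0 in the other spots of HC, and at 839 and 962 in TN3 (interaction -1.49 ± 0.30).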

How the data were processed

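RNA was captured on a Visium slide from TN and HC sections. The authors deposited raw UMI counts per gene and spot as whole numbers, made with Space Ranger 1.2.0 per the file headers (STAR is also named in the submitters' processing notes), as 1 matrix of 32623 genes and 6773 spots. For the genome build and annotation, nothing is given in the sources used here. The area of a spot was read from the number after its barcode, taken in the order in which the series description places TN1, TN2, TN3 and HC on the slide. No file used here states this map, and every value by area rests on it. Of 3573 distinct barcodes 2337 occur in 2 or more areas, since array positions are shared, and 398 distinct barcodes make up the 400 chosen spots. No spatial coordinates were used here.

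The 400 spots, the 28 gene lists and the tests were chosen with earlier results of these data known. Of 325 list genes 310 were found by symbol. UMIs were summed per area and class of spots, so that spots were not taken as replicates, and fitted with edgeR 4.0.16 in R 4.3.3 (TMM, filterByExpr, quasi-likelihood test, Benjamini-Hochberg adjustment, threshold 0.05), with 2 residual degrees of freedom for chosen against other spots. The rule genes were left out of all counts. P-values measure the spread between these areas. CPM of list genes are UMIs over the sum of all UMIs. DESeq2 1.42.0 was an alternative. Fits were tested on simulated data, where each also called some genes that had not been changed. Text names the 10 largest rises and falls for chosen against other spots and 5 in each direction otherwise, in the same direction in every area, and the most abundant list genes; 1 of these, named by an accession only, is left out. Other genes named from the lists or the HC classes were picked after their values were seen. No doublet caller was run on spots.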

Additional observations from a re-analysis of the deposited data

Results flagged for a closer look

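Lyz2, the lysozyme gene, was singled out because its difference between chosen and other spots was called in the interaction, at -1.49 ± 0.30 on the log2 scale by edgeR. HC is 1 area, so the call is a comparison between areas and not a test of the model. Its level was 332 CPM in the chosen and 252 in the other spots of TN1, 839 and 962 in TN3, and 219 and 79.0 in HC. NEWGENE_621351 was called in the same fit at -2.66 ± 0.59, with 3 UMIs in the chosen spots of TN1, 5 in TN3 and 289 in HC. Of 9 alternatives, the call of Lyz2 was lost in 6 and that of NEWGENE_621351 in 8, DESeq2 and DESeq2 size factors among them. On simulated data the interaction fit also called genes that had not been changed.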

How the results depend on the processing

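Chosen spots are few in TN, many rest on 2 to 5 UMIs, and they are shallower than the others, so that small changes in TN could not be seen. For chosen against other spots, the counts of genes higher and lower were 171 and 78 with DESeq2, 247 and 66 with 200 spots, 113 and 132 with other spots of like depth (an alternative chosen after seeing the data), and 11 and 0 with no replicate block. Leaving out 1 area at a time gave 84 to 445 higher and 112 to 377 lower. For TN against HC, the counts were 0 and 0 with DESeq2, 92 and 43 after thinning to 2000 UMIs, 27 higher with no filter on low counts, 86 higher with 5000 UMIs or more, 18 lower with rule, hemoglobin, mitochondrial and ribosomal genes left out, 44 lower with ranking by mean log2 CPM, and 14 lower without the 10 highest-ranked spots. For the interaction, 0 genes were lower with DESeq2 size factors, DESeq2, no filter, those genes left out, ranking by mean log2 CPM or without the 10 highest-ranked spots, 1 was higher and 1 lower after thinning, 3 and 9 with 5000 UMIs or more, and 2 and 21 with 800 spots. The causes were not tested. In HC, genes 4-fold higher in myeloid-dominant spots numbered 96 with 200 spots, 2 with 800, 33 with classes at 0.75 and 0.25 (and 1 lower), and 2 without the 10 highest-ranked spots (also chosen after seeing the data). With edgeR, 6 were higher and 15 lower in TN3 and HC with 800 spots, and 3 and 7 in areas with 5 spots of each class. HC held 84% of the spots with 200 kept and 71.2% with 800, TN1 held 9.88% with 800, and TN3 held 10.2% with 5000 UMIs or more and 10% with 200. With 200 spots, the myeloid-dominant share was 83.3% in HC, 50% in TN1, 40% in TN3 and 100% in TN2. It was 100% in TN2 with ranking by mean log2 CPM, and in HC 60.8% after thinning, 63.2% with 5000 UMIs or more and 63.3% with 800 spots. With other spots of like depth, log2 ratios changed sign for Dync1i1 (0.064), Chi3l1 (-0.049), Csf1r (-0.19), Tf (-0.55), Calca (0.19), Tac1 (0.35), Prph (0.30), Nefh (0.18), Mobp (-0.15), Mog (-0.94), Opalin (-0.57), Olig1 (-0.70), Hapln2 (-0.42), Aqp4 (-0.79) and Gja1 (-0.61). With 1 area left out, Mog ran from -0.0026 without TN3 to 1.01 and Opalin from -0.25 without HC to 1.45. For 80 of 95 differences of named genes the direction held in every alternative run. TN1, TN2, TN3 and HC are 1 sample each, so no replicate numbers pair TN with HC: No paired analysis was possible because HC has 1 area. Leaving out an area, or keeping 200 spots, left no residual degrees of freedom for TN against HC and the interaction, and the planned edgeR fits of the classes could not be made where only HC had 20 spots of each.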

Other observations

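Of the 5 chosen spots of TN2, 4 were myeloid-dominant, and together they had 124 myeloid and 8 erythroid rule UMIs among 84179. Their hemoglobin rows took 1.94% of the UMIs, the lowest of the 4 areas. Thinned to 2000 UMIs, 15.8% of the other spots of HC had a myeloid rule UMI, against 2.51% in TN1, 3.16% in TN2 and 4.19% in TN3. For the erythroid rule genes the shares were 12.3% in HC, 7.01% in TN1, 3.32% in TN2 and 9.29% in TN3.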
